A study of Homo sapiens with 6 samples.

Results

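CTCF-bound regions were examined in 4 segments of chromosomes 10, 16 and 17 of HCT-116, a colon cancer line of human origin. The segments lay, in the hg19 build, at 110 to 130 Mb of the long arm of chromosome 10, at 80 to 90.4 Mb of 16q, and at 50 to 60 Mb and 70 to 81.2 Mb of 17q. They lie in or near copy gains known for this line. Every peak of the 3 CTCF lists inside these windows was taken, and overlapping peaks were merged, which gave 1881 regions of 60235 in the whole series. The 10q segment held 558 of them, the 16q segment 445, the proximal 17q segment 269 and the distal 17q segment 609. The other parts of these 3 long arms, with 3617 regions, served for comparison.

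The study mapped CTCF by chromatin immunoprecipitation and sequencing in D3 and E4, 2 HCT-116 clones whose genotype is given as a CTCF mutation, and in wild-type cells (WT). All cells were untreated, and the labels give neither the site nor the kind of the mutation. With 1 CTCF library per population, differences lack a replicate check and no p-value was computed. There were 57935 D3 peaks, 39434 E4 peaks and 38645 WT peaks in all, and the depth behind them is unknown.

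CTCF is a zinc-finger protein that binds a GC-rich motif, blocks contacts between enhancers and promoters, and halts cohesin at the anchors of chromatin loops. Most of its sites are shared between tissues, while weak sites vary more between cells. In chromatin immunoprecipitation the number of copies of a segment adds to the reads that fall on it, both at the sites and between them. Copy number was not measured here, and a change in binding and a change in copies cannot be told apart in these lists.

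The windows were chosen by the share of WT peaks absent from both clones in these lists, together with the known gains. That share, and the ranks and widths of the same clone and WT lists, are therefore given as descriptions. Intervals are exact 95% intervals, which cover counting error only and leave out the spread between cultures.

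To show what the regions hold at sequence level, 4 promoters of genes in the segments are printed, chosen after the values were seen. TK1, the cytosolic thymidine kinase of dividing cells, and RNF43, a ubiquitin ligase that removes WNT receptors from the cell surface, had a peak at the start site in all 3 libraries. COTL1, an actin-binding protein, and TBX4, a limb T-box transcription factor, had a start-site peak in WT and in neither clone. The sequences are RefSeq's for GRCh38.p14, in the gene's direction, 250 bases before to 50 after the start. Capitals mark a match, searched on both strands, to a CTCF core motif spelled CC, any 3 bases, AG, any 2 bases, GGC.
TK1 (minus strand, chr17:78187155-78187454): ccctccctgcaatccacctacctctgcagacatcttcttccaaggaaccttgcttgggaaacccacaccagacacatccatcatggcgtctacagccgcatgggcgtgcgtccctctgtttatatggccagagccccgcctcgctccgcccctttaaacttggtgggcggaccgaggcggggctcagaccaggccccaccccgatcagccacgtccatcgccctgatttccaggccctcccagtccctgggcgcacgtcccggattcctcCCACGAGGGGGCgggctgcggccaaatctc
RNF43 (minus strand, chr17:58417485-58417784): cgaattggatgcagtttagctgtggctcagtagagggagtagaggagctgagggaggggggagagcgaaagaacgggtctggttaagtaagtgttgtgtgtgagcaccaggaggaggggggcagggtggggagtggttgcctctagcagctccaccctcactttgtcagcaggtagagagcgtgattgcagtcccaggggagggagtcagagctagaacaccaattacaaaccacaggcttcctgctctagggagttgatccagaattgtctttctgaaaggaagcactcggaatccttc
COTL1 (minus strand, chr16:84618029-84618328): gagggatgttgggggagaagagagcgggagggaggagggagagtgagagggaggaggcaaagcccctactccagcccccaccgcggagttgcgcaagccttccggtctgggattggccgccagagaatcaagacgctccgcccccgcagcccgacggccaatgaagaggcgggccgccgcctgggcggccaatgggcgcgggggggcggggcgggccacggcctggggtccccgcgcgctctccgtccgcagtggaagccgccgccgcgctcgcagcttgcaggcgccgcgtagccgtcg
TBX4 (plus strand, chr17:61456238-61456537): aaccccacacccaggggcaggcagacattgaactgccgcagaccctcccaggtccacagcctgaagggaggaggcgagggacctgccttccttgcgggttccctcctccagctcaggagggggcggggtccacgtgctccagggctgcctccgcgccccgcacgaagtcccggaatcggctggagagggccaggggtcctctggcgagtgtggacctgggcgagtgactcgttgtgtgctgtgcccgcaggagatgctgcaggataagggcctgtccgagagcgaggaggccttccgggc
TK1 holds 1 match, starting 20 bases after the start site. The others hold none in these 300 bases. The motif occurs in 10.6% of the 35116 promoters of the table. Of the 17 start sites covered by a peak whose position lay within 500 bp of that table's, 3 hold it.

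The regions at these 4 start sites differed in strength. The TK1 region (chr17:76182670-76183867, hg19) had a −log10 q at the 81.6th percentile in the D3 list, the 71.9th in E4 and the 88.3rd in WT. The RNF43 region (chr17:56494355-56495786) stood at the 92.8th, 80.7th and 88.1st percentiles of D3, E4 and WT. Both lay in the upper part of all 3 lists. The COTL1 peak (chr16:84651411-84652579) stood at the 7.04th percentile of WT and the TBX4 peak (chr17:59533724-59534000) at the 6.72nd, among the weakest of that list.

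WT had more peaks in the segments than the clones did, set against the length of each list. The segments held 1652 D3 peaks, 1133 E4 peaks and 1407 WT peaks, which are 2.85%, 2.87% and 3.64% of those lists. In the rest of the 3 arms the shares were closer, at 5.97% in D3, 6.22% in E4 and 6.49% in WT. E4 had 0.805 peaks per WT peak in the segments, with 0.794 on 10q, 0.768 on 16q, 0.824 on proximal 17q and 0.831 on distal 17q. Outside them the ratio was 0.978, and over the genome 1.02. D3 had 1.17 peaks per WT peak in the segments (1.25, 1.20, 1.19 and 1.09 in the same order), 1.38 in the rest of the arms and 1.499 over the genome. So each segment had fewer clone peaks per WT peak than the rest of its own arm, in both clones.

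Of the 1881 regions, 991 were called in all 3 libraries, 214 in WT alone, 391 in D3 alone and 18 in E4 alone. A further 94 were called in both clones but lacked a WT peak, 169 were called in D3 and WT, and 4 in E4 and WT. WT alone accounted for 11.4% of the regions in the segments (10.0 to 12.9), against 3.40% in the rest of the arms (2.83 to 4.04). D3 alone accounted for 20.8% and 23.4%.

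WT peaks that neither clone shared numbered 214 of 1407 in the segments, or 15.2% (13.4 to 17.2). The rest of the arms had 123 of 2507, or 4.91% (4.09 to 5.83), and the whole WT list 3.69%. The 4 segments were alike, with 64 of 389 on 10q (16.5%), 51 of 328 on 16q (15.5%), 27 of 199 on proximal 17q (13.6%) and 72 of 491 on distal 17q (14.7%). Outside the segments the arms had 5.05% on 10q, 2.96% on 16q and 5.71% on 17q. Each clone on its own also lacked more WT peaks in the segments. D3 lacked 15.5% of the WT peaks in the segments, 5.15% in the rest of the arms and 4.05% over the list. E4 lacked 27.4% in the segments, 14.0% in the rest and 14.3% over the list. Of the 218 WT peaks that D3 lacked in the segments, 214 were also absent from E4. With peaks of −log10 q below 5 left out of each list, the share missing from both clones was 0.791% in the segments and 0.616% in the rest of the arms, so the difference rests on weak peaks.

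**Figure D1:**
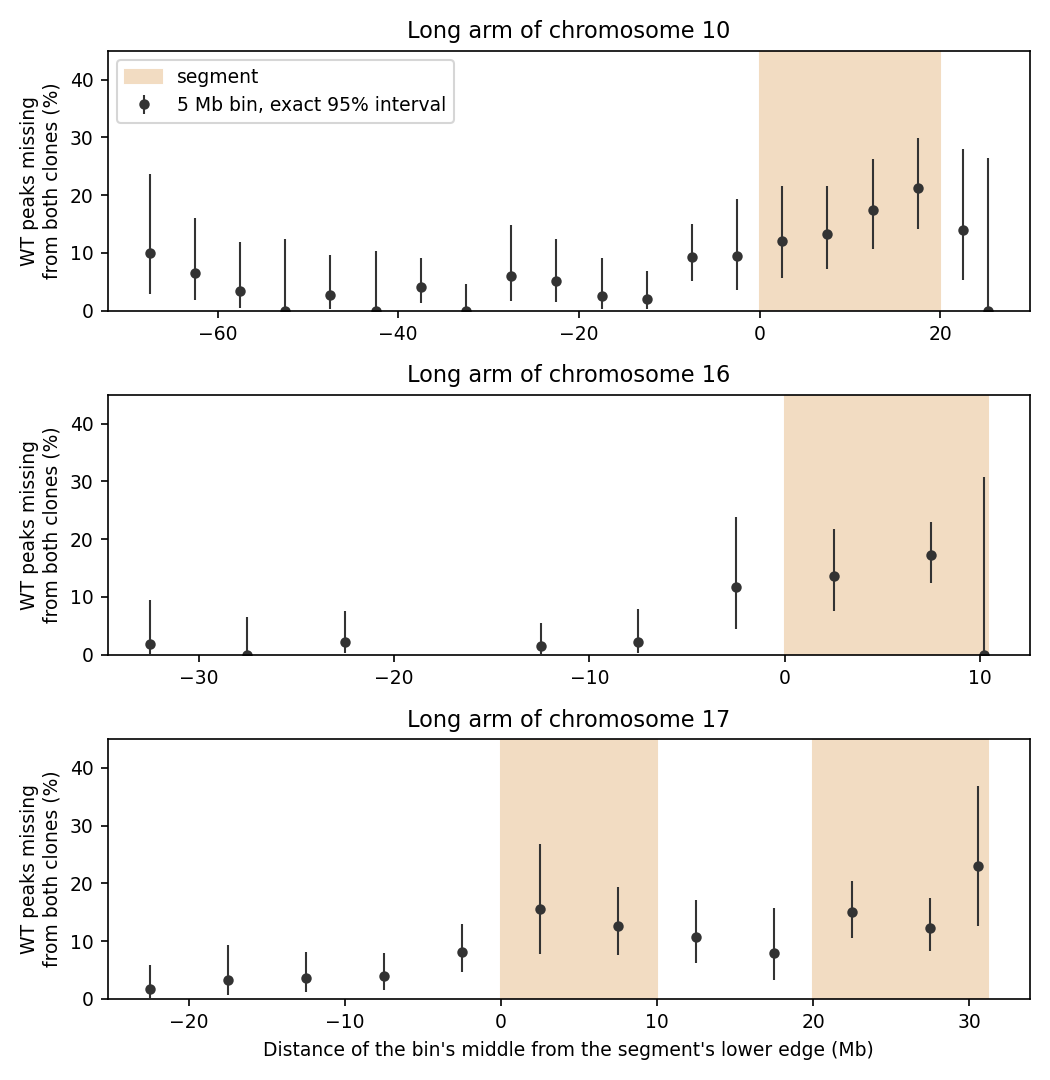
Share of WT peaks with no peak in D3 or E4 in 5 Mb bins (points, with exact 95% intervals; bins under 10 WT peaks left out), by distance from the lower edge of the segment, for the long arms of chromosomes 10, 16 and 17. Bins in the shaded segments had a median of 14.3%, and bins outside them 3.45%, with raised bins next to the shading.

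Along the arms the share was raised in the segments and in several bins next to them. The 12 bins of 5 Mb in the segments with 10 or more WT peaks ranged from 0% to 23.1%, with a median of 14.3%. The 29 bins outside ranged from 0% to 14.0%, with a median of 3.45%. The single bin at 0% inside a segment was the end of 16q, with 10 WT peaks, which allows a share of up to 30.8%. On 10q the bins from 110 Mb onwards held 12.0%, 13.3%, 17.5% and 21.2%. The bins next to them held 9.27% and 9.38% below the segment and 14.0% above it. On 16q the bin just below the segment held 11.8%, and those inside it 13.6% and 17.2%. On 17q the bin below the proximal segment held 8.06% and the first one inside it 15.6%. Between the 17q segments, the bins from 60 to 70 Mb held 10.7% and 7.95%, and the first bin of the distal segment 15.0%. The highest share of all, 23.1%, was in the 52 WT peaks from 80 Mb on.

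The regions next to the edges were as follows. Just inside the lower edge of the 10q segment lay a region of E4 alone (chr10:110190549-110191520, 0.413th percentile), and just outside it one of D3 alone (chr10:109963924-109964642, 46.0th percentile). At its upper edge, regions of all 3 libraries lay on both sides, chr10:129976183-129977501 inside and chr10:130007884-130011111 outside. On 16q the first region inside was of D3 alone (chr16:80030997-80031499) and the last outside of WT alone (chr16:79690645-79690922). The proximal 17q segment opened with a region of all 3 libraries (chr17:50183536-50185161), and the last one outside it was also of all 3 (chr17:49938013-49939074). It ended with a peak of WT alone (chr17:59953388-59953727), and the first region beyond was of both clones without WT (chr17:60022071-60022539). The distal 17q segment opened with a region of all 3 libraries (chr17:70049534-70050004), below which lay one of D3 alone (chr17:69959548-69959918).

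**Figure D2:**
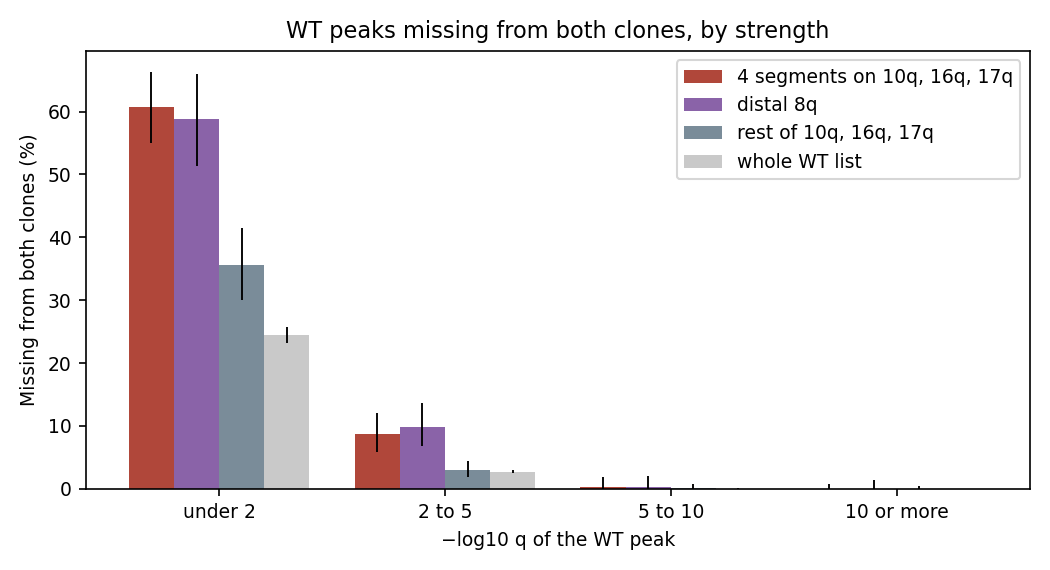
Share of WT peaks missing from both clones by the −log10 q of the WT peak, in the 4 segments, distal 8q, the rest of the 3 arms and the whole WT list (bars, with exact 95% intervals). Among peaks under 2 the share was 60.8% in the segments and 35.6% in the rest of the arms, and from 5 upwards it was close to 0 everywhere.

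The WT peaks that the clones lacked were the weakest ones. Among WT peaks with a −log10 q under 2, 183 of 301 in the segments were missing from both clones (60.8%, 55.0 to 66.3), against 99 of 278 in the rest of the arms (35.6%, 30.0 to 41.6) and 24.5% of the list. The segments ranged from 59.4% on distal 17q to 63.9% on proximal 17q. The rest of 16q had the lowest share, 17.9%, and the rest of 17q 44.6%. From 2 to 5, the share was 30 of 347 in the segments (8.65%), 23 of 768 in the rest (2.99%) and 2.73% over the list. At 5 or more it was 1 of 759 in the segments, 1 of 1461 in the rest and 0.0293% over the list. That 1 peak was chr17:58103941-58104218, 278 bp wide, with a −log10 q of 6.65 and a fold of 6.16, stronger than 60.4% of WT peaks. Its nearest D3 peak lay 7.01 kb away.

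Distal 8q, from 85 Mb onwards, is another gained stretch of this line. Its shares missing from both clones were near those of the segments. There both clones lacked 142 of 1043 WT peaks (13.6%), with 58.8% of those under a −log10 q of 2 and 9.78% of those from 2 to 5. E4 was less alike among stronger WT peaks. Of those at 5 or more it lacked 5.75% on distal 8q and 1.45% in the segments, while D3 lacked 0.371% and 0.132%.

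The 214 missing peaks had a median fold of 3.26, a median −log10 q of 1.49 and a median width of 454 bp. The WT peaks of the segments as a whole had medians of 5.30, 5.67 and 851 bp. Of the 214, 179 came from the weakest decile of the WT list. Their nearest clone peak lay a median of 8.80 kb away (6.33 to 11.6), and 117 had one within 10 kb. The longest run of consecutive WT peaks that were all missing was 4, on 10q and on distal 17q.

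**Figure D3:**
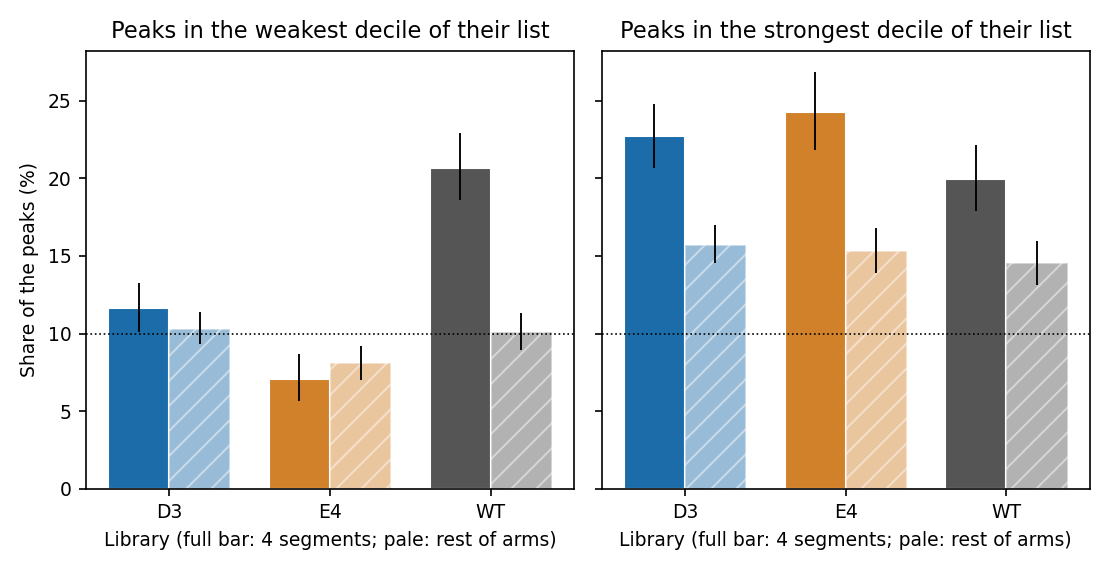
Share of the peaks of each library (D3, E4, WT) that belong to the weakest and to the strongest decile of their own list by −log10 q, in the 4 segments (full bars) and in the rest of the 3 arms (pale hatched bars), with exact 95% intervals and a dotted line at 10%. The weakest decile made up 11.6% of D3, 7.06% of E4 and 20.7% of WT peaks in the segments, and the strongest decile more in the segments than in the rest of the arms in each library.

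The WT list was richer in weak peaks in these segments than the clone lists were. Peaks of the weakest decile of their own list made up 11.6% of D3 peaks (10.1 to 13.3), 7.06% of E4 peaks (5.64 to 8.71) and 20.7% of WT peaks (18.6 to 22.9) in the segments. In the rest of the arms they made up 10.3%, 8.08% and 10.1%. By segment, the WT share was 22.9% on 10q, 22.6% on 16q, 17.1% on proximal 17q and 19.1% on distal 17q. Peaks of the strongest decile were frequent in all 3 libraries, at 22.7% of D3 peaks, 24.3% of E4 peaks and 19.97% of WT peaks, against 15.7%, 15.3% and 14.5% in the rest of the arms. On 16q they reached 28.4%, 26.6% and 22.3%. On proximal 17q they were 13.9%, 18.9% and 12.1%, below the 21.7%, 22.0% and 20.4% in the rest of 17q. The segments also differ from the arms in density, though not in 1 direction. There were 31.7 WT peaks per Mb on 16q against 11.4 in the rest of 16q, and 19.45 on 10q against 14.9 in the rest of 10q. Distal 17q had 43.9 and proximal 17q 19.9, above and below the 27.2 in the rest of 17q. Density was not tested as a part of the missing share.

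In the reverse direction, the segments together held a smaller share of clone regions without WT than the rest of the arms did. Regions called in both clones without WT were 94 of 1085 regions of both clones in the segments (8.66%, 7.06 to 10.5), against 272 of 2379 in the rest of the arms (11.4%, 10.2 to 12.8) and 14.7% over the genome. They were fewest on 16q, 15 of 245 (6.12%), and most on 10q, 32 of 295 (10.8%). The rest of 10q, 16q and 17q had 13.4%, 12.7% and 8.39%, so distal 17q, at 9.28%, lay above the rest of its own arm. D3 peaks without a WT peak were 29.5% in the segments and 32.4% in the rest of the arms, and such E4 peaks 10.2% and 13.0%. Between the clones, D3 peaks without an E4 peak were 34.0% in the segments (31.7 to 36.3), 30.9% in the rest of the arms (29.4 to 32.5) and 34% over the list. They were 39.2% on 10q, 37.3% on 16q, 33.8% on proximal 17q and 26.8% on distal 17q, against 33.1%, 32.8% and 27.0% in the rest of 10q, 16q and 17q. E4 peaks without a D3 peak were 1.94% in the segments, 1.92% in the rest of the arms and 2.54% over the list.

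The regions named as strongest were picked among those called in all 3 libraries, so their presence and high rank in each are given by that choice. On 10q they were led by chr10:118975147-118977314, at the 99.98th percentile in D3, the 99.97th in E4 and the 99.93rd in WT. Next came chr10:123367764-123369089, 9.79 kb from FGFR2, a receptor for fibroblast growth factors, and chr10:129809119-129810460 inside PTPRE, a receptor-type tyrosine phosphatase. The strongest of 16q was chr16:86596917-86598370, 2.49 kb from FOXC2, a forkhead transcription factor of mesoderm and lymphatic development. It stood at the 99.99th percentile in D3, the 99.98th in E4 and the 99.95th in WT. On proximal 17q chr17:55037475-55039293 led, and on distal 17q chr17:79074499-79076970, at the 99.98th, 99.89th and 99.99th percentiles of D3, E4 and WT.

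To compare strength, the regions called in all 3 libraries were ranked within each library from 0 to 100, over the 32495 such regions of the genome. A region's rank in the clone minus its rank in WT is given in percentile points. The 991 shared regions of the segments had a median difference of 0.27 points for D3 (-0.25 to 0.84) and -1.09 for E4 (-2.11 to -0.55). The 2107 shared regions in the rest of the arms had 0.74 (0.28 to 1.32) and 0.46 (-0.12 to 0.97). On distal 8q the medians were -5.03 in D3 and -12.6 in E4. Ranked by the authors' fold in place of −log10 q, the medians of the segments were -3.55 in D3 and -3.65 in E4, against 0.34 and -0.19 in the rest of the arms. With either measure the median E4 region of the segments ranked below WT, and the sign in D3 depended on the measure. Regions ranking 10 or more points lower than in WT were 215 of 991 in D3 (21.7%, against 26.8% of all shared regions) and 263 of 991 in E4 (26.5%, against 26.5%). Regions ranking 10 or more points higher were 21.4% in D3 and 16.3% in E4, against 26.5% and 27.3% of all shared regions. In the rest of the arms, 22.4% in D3 and 24.5% in E4 ranked 10 or more points lower, and 26.1% and 26.0% higher.

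**Figure D4:**
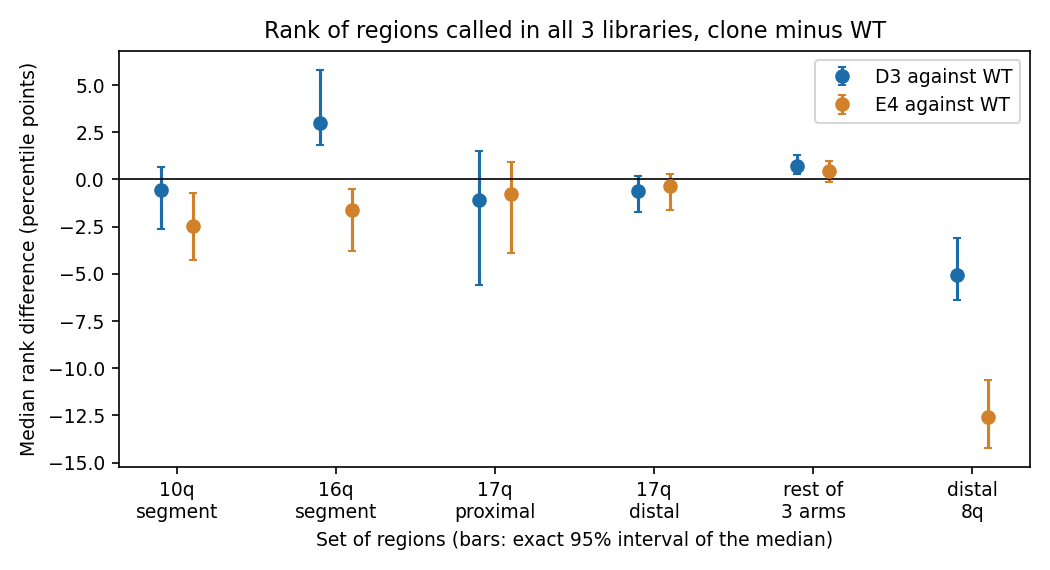
Median difference in rank, clone minus WT, of regions called in all 3 libraries, in each segment, the rest of the 3 arms and distal 8q (D3 and E4 side by side; bars are exact 95% intervals of the median). On 16q D3 lies above 0, at 3.0, and E4 below it, at -1.62, while distal 8q lies lowest in both clones.

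The 4 segments were not alike in rank. On 10q the medians were -0.57 for D3 (-2.62 to 0.67) and -2.48 for E4 (-4.26 to -0.73), with the lowest 5 Mb bin, from 125 Mb, at -3.33 and -7.32. On proximal 17q they were -1.08 and -0.76, and on distal 17q -0.62 and -0.36, with all 4 intervals crossing 0. On 16q the clones parted. Its 230 shared regions had a median of 3.0 points in D3 (1.85 to 5.82) and -1.62 in E4 (-3.78 to -0.52), and the median of D3 minus E4 was 6.04 (3.54 to 7.93). In the rest of the arms that difference was -0.02 (-0.55 to 0.45). Such a gap was not particular to 16q, since distal 8q had 6.71 (5.36 to 8.18), with both clones below WT there. Just below the 10q segment, the bins from 100 and 105 Mb had 4.71 and 8.89. Their D3 medians lay above 0 and their E4 medians below it, though both E4 intervals crossed 0. Ranked by the authors' fold in place of −log10 q, the 16q median of D3 minus WT was -1.49 (-3.36 to 0.34) and that of D3 minus E4 2.46. The sign in D3 thus depends on the measure, though the D3 interval by fold crossed 0.

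Gene by gene, 26 listed genes of the 16q segment had a shared region within 10 kb, and neighbouring genes can share a region. Their median rank difference to WT, by −log10 q, was above 0 in D3 for 20 of 26 and in E4 for 6 of 26, and 23 of 26 lay higher in D3 than in E4. Of all 230 shared regions of the segment, 30.4% ranked below WT in D3, 59.6% in E4, and 23.5% ranked lower in D3 than in E4. By fold the 16q median of D3 minus WT was -1.49 (-3.36 to 0.34), and genes were not counted by fold. On 10q the counts above 0 were 13 of 27 in D3 and 12 of 27 in E4, and of all its shared regions 52.5% and 57.8% ranked below WT. The 16q genes include the forkhead cluster. FOXL1, a forkhead factor of the gut mesenchyme, had 1 shared region, with differences of 21.1 in D3 and 16.01 in E4. The window of FOXC2 holds that same region and the strong one described above, whose rank differed by 0.04 points in D3 and 0.03 in E4. FOXF1, a forkhead factor of the lung and gut mesoderm, had 16.1 and 3.90. IRF8, an interferon regulatory factor of myeloid cells, had 23.9 in D3 and -7.37 in E4.

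Single regions moved much further than the medians. On distal 17q chr17:79677765-79680743 ranked lower than in WT, with differences of -57.5 points in D3 and -53.6 in E4. The lowest difference printed for D3 was that of chr10:129290653-129291928, at -68.3 points, with -45.6 in E4. Its peaks were 1276 bp wide in D3, 694 bp in E4 and 496 bp in WT. On 10q chr10:112038544-112040027 in MXI1, a partner of MAX that opposes MYC, followed with -46.0 and -43.9, and chr10:111774654-111776231 in ADD3, an adducin of the membrane skeleton, with -52.8 and -37.6. On 16q chr16:81478772-81479491, at the start of the adaptor gene CMIP, ranked lower by -41.5 and -27.7. On distal 17q chr17:73717016-73718584, at the start of ITGB4, the integrin beta subunit of hemidesmosomes, had -40.0 in D3 and -34.5 in E4. Others ranked higher in the clones. The one with most was chr16:83987289-83988523 in OSGIN1, a gene induced by oxidative stress, with 56.7 points in D3 and 63.9 in E4. Its percentile was 86.3 in the D3 list, 85.9 in E4 and 27.6 in WT. On 10q chr10:114448468-114449727 in VTI1A, a membrane-fusion protein, had 43.8 and 40.9, and on distal 17q chr17:76491980-76493890 had 52.0 and 53.0.

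WT peaks were wide in these segments. In shared regions, the median width was 1311 bp in D3, 942 bp in E4 and 1001 bp in WT, against 1188, 873 and 771 bp in the rest of the arms. Ranked by width over all shared regions of the genome, the segments had a median rank of 69.5 for D3 peaks, 63.1 for E4 peaks and 78.9 for WT peaks, while the rest of the arms had 58.2, 56.0 and 59.8. The median log2 ratio of width was 0.42 for D3 over WT (0.38 to 0.47) and -0.11 for E4 over WT (-0.14 to -0.07). In the rest of the arms it was 0.60 (0.58 to 0.63) and 0.16 (0.13 to 0.18), and over the genome 0.68 and 0.23. E4 peaks were narrower than those of WT in 578 of 991 regions of the segments (58.3%), against 38.3% in the rest of the arms. Each segment had a median below 0 for E4, from -0.12 on 16q to -0.10 on 10q, though the interval of proximal 17q reached 0.03. With peaks of −log10 q below 5 left out, proximal 17q turned to 0.034.

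**Figure D5:**
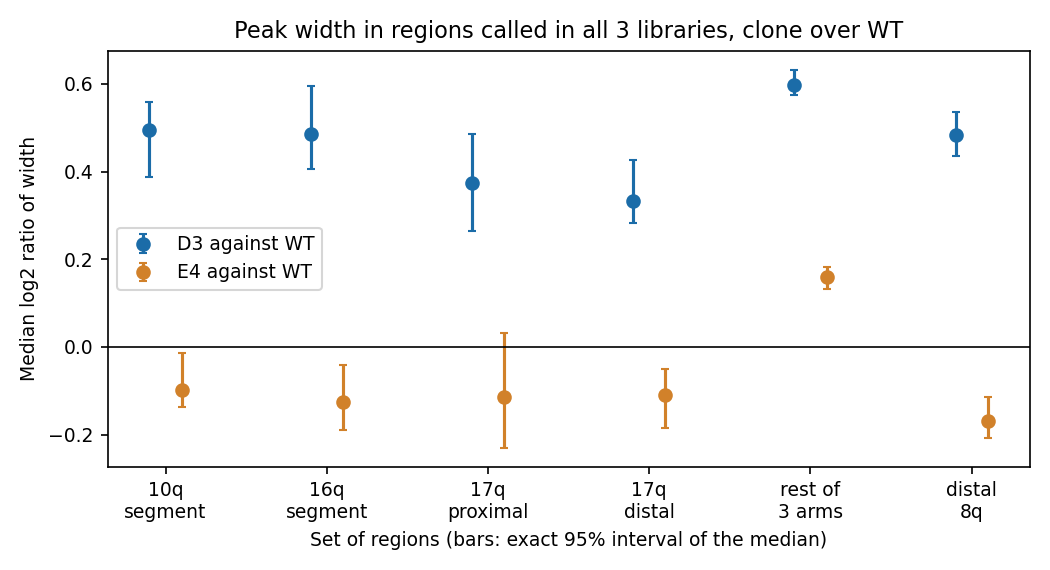
Median log2 ratio of peak width, clone over WT, in regions called in all 3 libraries, for each segment, the rest of the 3 arms and distal 8q (D3 and E4 side by side; bars are exact 95% intervals of the median). Each segment lies below the rest of the arms in both clones, and E4 lies below 0 in all 4, though on proximal 17q it turned to 0.034 with peaks of −log10 q below 5 left out.

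Over the segments together, WT peaks were wider than in the rest of the arms at every strength. Those of proximal 17q were close in width to the rest of their own arm. In the bands of −log10 q under 2, 2 to 5, 5 to 10 and 10 or more, WT peaks of the segments had median widths of 533, 561, 847 and 1158 bp. In the rest of the arms they had 409, 508, 732 and 988 bp. On proximal 17q the WT medians were 432, 550, 756 and 1045 bp, against 434, 544, 785 and 1052 bp in the rest of 17q. D3 peaks in the top band were 1358 bp wide in the segments and 1232 bp in the rest, and E4 peaks 1082 and 1010 bp. Below that band the clones showed no such excess. From 2 to 5, D3 had 486 bp in the segments and 494 bp in the rest, and E4 426 and 464 bp.

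The genes of the segments were read in windows of 10 kb around each gene. Of 359 WT peaks in the windows of 105 listed genes, 60 were missing from both clones (16.7%), close to the 15.2% of all WT peaks of the segments. In the windows of 8 genes elsewhere on these arms (RET, CYLD, CTCF, CDH1, NF1, ERBB2, BRCA1 and AXIN2) it was 0 of 19, which allows a share of up to 17.6%. No missing peak in a gene window had a −log10 q of 5 or more. Below, a WT peak that a gene lacked is one missing from both clones unless a clone is named.

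The 3 WNT signalling genes kept all 7 of their WT peaks in at least 1 clone, which allows a missing share of up to 41.0%. TCF7L2, the transcription factor that works with beta-catenin, had 10 D3 peaks, 4 E4 peaks and 4 WT peaks, and all 4 of its WT peaks had a clone peak. RNF43 had 1 peak in each library. SOX9, a transcription factor of intestinal crypt cells, had 2 in each.

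Of the 8 developmental transcription factors, 2 held a missing WT peak. EMX2, a homeobox factor of the forebrain and urogenital tract, lacked 1 of 2, of −log10 q 1.19, and its other WT peak stood at the 98.7th, 94.1st and 97.5th percentiles of D3, E4 and WT. TBX4 lacked the 1 at its start site, of −log10 q 1.69. TBX2, its neighbour and a repressor of the same family, had 4 peaks in each library. FOXF1, FOXC2, FOXL1, IRF8 and HLF, a leucine-zipper factor, lacked none.

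Genes of genome maintenance and cell division lacked 5 of 20 WT peaks, 25.0% (8.66 to 49.1), an interval that holds the share of the segments. FANCA, a member of the Fanconi DNA repair complex, lacked 2 of 4. The spindle checkpoint gene BUB3 lacked 1 of 1, of −log10 q 2.09, TRIM37, a ubiquitin ligase of the centrosome, 1 of 3, and BRIP1, a helicase that binds BRCA1, 1 of 2. SMC3, a core subunit of cohesin, had 3 D3 peaks, 2 E4 peaks and 2 WT peaks and lacked none. CDT1, which licenses replication origins, RAD51C, a recombination factor, the phosphatase gene PPM1D and TK1 lacked none, and BIRC5, an inhibitor of apoptosis active in mitosis, had no peak in any library.

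Genes of growth signalling lacked 4 of 33 WT peaks in both clones (12.1%, 3.40 to 28.2) and 10 of 33 in E4, among them 1 of 2 at NOG and 1 of 3 at SOCS3. RPTOR, a subunit of the growth-controlling kinase complex mTORC1, lacked 2 of 12, and its strongest peaks stood at the 99.9th, 99.6th and 99.1st percentiles of D3, E4 and WT. FGFR2 lacked 1 of 2, and PLCG2, a phospholipase of receptor signalling, 1 of 8. GRB2, RPS6KB1, NOG, SOCS3 and PDCD4 had no peak missing from both clones, and SHOC2, a scaffold of RAS signalling, had a peak in D3 alone. Of the colon epithelial genes, CA4, a carbonic anhydrase, lacked 1 of 3, and DMBT1, ITGB4, DPEP1, LGALS3BP and ACSL5 lacked none of their 14 WT peaks between them.

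Genes outside these lists lacked 48 of their 268 WT peaks (17.9%), near the share over all windows. ADAM12, a membrane metalloprotease on 10q, had 4 D3 peaks, 1 E4 peak and 6 WT peaks, and 4 of the 6 were missing from both clones. DOCK1, an activator of the GTPase RAC, lacked 3 of 6 and had 8 regions called in D3 alone. CDH13, a cadherin without a cytoplasmic tail on 16q, had 13 D3 peaks, 3 E4 peaks and 11 WT peaks. D3 lacked 3 of those 11, and E4 lacked 9. MSI2, an RNA-binding protein of stem cells on 17q, had 12, 5 and 12 peaks in D3, E4 and WT, and lacked 3 of 12 in both clones and 7 of 12 in E4. SLC39A11, a zinc transporter, lacked 3 of 8, and JPH3, a junctophilin of neurons, 3 of 9. In other genes with many WT peaks, GRK5, a kinase that acts on G protein-coupled receptors, lacked 1 of 11, and TBCD, a tubulin-folding cofactor, 2 of 12.

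Peaks at start sites were mostly common to the libraries or absent from all. Of the 105 genes, 20 had a region of all 3 libraries at the start site, 75 had none and 10 had one of fewer libraries. WT alone had one at COTL1 and TBX4, D3 alone at SHOC2, PLCG2, FANCA and TIMP2, and E4 alone at PRDX3. Both clones without WT had one at UROS, D3 and WT at TRIM37, and E4 and WT at VTI1A. Of the 30 start sites covered by a peak, 23 were matched to a RefSeq promoter, and 17 lay within 500 bp of its start. That of PLCG2 departed by -40226 bp, so its D3 peak was not shown to lie at the RefSeq start. On 10q GRK5 stood at the 99.8th percentile in D3, the 98.99th in E4 and the 95.3rd in WT. On distal 17q GAA, the lysosomal enzyme that breaks down glycogen, stood at the 99.7th, 99.8th and 98.5th percentiles. COTL1 kept its stronger peak in all 3 libraries, at the 89.97th percentile in D3, the 63.8th in E4 and the 66.4th in WT, and lacked 2 of 3 WT peaks in the clones.

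Among WT peaks without a clone peak, even the strongest were weak or of middle strength. After the proximal 17q peak given above, the highest −log10 q among missing WT peaks was 3.75 on 16q (chr16:85478693-85479253), 3.60 on distal 17q (chr17:80294653-80295133) and 3.53 on 10q (chr10:113005955-113006256). The 10q peak lay 34.9 kb from the nearest D3 peak and 35.1 kb from the nearest E4 peak. A second proximal 17q peak (chr17:58469754-58470010, −log10 q 3.18) lay 0.754 kb from USP32, a deubiquitinase gene, and 42.9 kb from the nearest D3 peak. In the other direction, the leading regions of both clones without WT ranged from the 27.5th to the 72.0th percentile of a clone's list. They included chr10:120784417-120785352, 9.19 kb from EIF3A, a translation initiation factor subunit, at the 59.9th percentile of D3 and the 52.4th of E4. On proximal 17q chr17:59436054-59436760 in BCAS3 stood at the 27.6th and 28.8th percentiles of D3 and E4.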

How the data were processed

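For each CTCF library (D3, E4 and WT, 1 sample each) the authors deposited its own broad peak list, so peaks were called per sample. Per the submitters' processing notes the build was hg19 and the tools were MACS2 2.2.7.1, bedtools 2.29.2, Picard 2.23.1 and CASAVA 1.8.2, with no role or order. Aligner, peak-calling settings and control are not given in the sources used here. Libraries made without antibody were not analysed here. The deposited lists give a score, a fold enrichment and the −log10 p and −log10 q of each peak. The fold enrichment, a ratio, and both −log10 values are the authors' own and were used only within a list, and the deposited score was not used. The lowest −log10 q was 1.01. Depth is unknown, so list lengths were not read as binding.

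Peaks overlapping by 1 bp or more were merged into regions (Python 3.11.15, pandas 2.3.3, numpy 2.4.6, scipy 1.17.1, matplotlib 3.10.9). A region with several peaks of 1 library took its strongest −log10 q and its summed width. Shares carry exact Clopper-Pearson intervals and medians exact order-statistic intervals. The calculations were tested on simulated lists. The members and the gene lists were chosen with earlier results of these data known. Named regions were, per segment, the strongest of all 3 libraries, the WT peaks of highest −log10 q without a clone peak, the leading regions of both clones without WT, and those whose rank differed most in both clones. Not all of these are printed, and 1 listed gene is not reported here. Named genes were the members of 5 lists and genes holding most or missing WT peaks. Gene windows are hg19 positions taken from general knowledge. All 113 genes were found in the RefSeq table of GRCh38.p14 on the same chromosome, and in the same order on 3 of 3 chromosomes. The largest departure of a gene's middle from its neighbours was 107.88 kb. Alternatives were a limit on −log10 q at 5, lists of equal length (38645 peaks), 50% coverage, peaks within 1 kb, ranks by fold, and segments less 1 Mb at each inner edge.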

Additional observations from a re-analysis of the deposited data

Results flagged for a closer look

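On the 16q segment the regions called in all 3 libraries ranked higher than in WT in D3, with a median of 3.0 points (1.85 to 5.82), and lower than in WT in E4, with a median of -1.62 points (-3.78 to -0.52). The median of D3 minus E4 was 6.04 points over 230 regions (3.54 to 7.93). On distal 8q that median was 6.71 points (5.36 to 8.18). The 16q segment was picked out because the clones moved to opposite sides of WT there. This gap between D3 and E4 was not tested, since each had 1 library. On 16q it was 2.46 points when regions were ranked by fold. The medians to WT were then -1.49 in D3 (-3.36 to 0.34) and -5.96 in E4 (-7.04 to -2.67), and the D3 interval crossed 0.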

How the results depend on the processing

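Of 38 recomputed values over the 4 segments together, 22 stayed within the interval of the reported value and 16 did not, and 2 of them changed sign, both ranked by fold. With peaks of −log10 q below 5 left out of each list, WT peaks missing from both clones were 0.791%, from D3 1.05% and from E4 6.46%, against 0.616%, 1.03% and 8.01% in the rest of the arms. Regions of both clones without WT were then 12.4%, the median rank difference of D3 to WT 0.98 points, and the log2 width ratio of E4 over WT -0.052. With lists of equal length, 21.3% were missing from both clones, 24.9% from D3, and 4.26% of clone regions lacked WT. With 50% coverage the shares were 19.0%, 19.5% and 35.5% for both clones, D3 and E4, and 21.4% of clone regions lacked WT. The share of clone regions without WT was below that of the rest of the arms in all 6 settings. The pooled share missing from both clones, by which the windows were chosen, was above that of the rest in all 6. At the −log10 q limit its interval (0.291 to 1.71) overlapped that of the rest (0.282 to 1.17), so that setting shows no clear difference. By segment, 16q (0%) and distal 17q (0.365%) fell below the rest at the −log10 q limit. Ranked by fold, the medians were -3.55 (D3 minus WT), -3.65 (E4 minus WT) and -0.12 (D3 minus E4). On 16q D3 minus WT was -1.49, with an interval that crossed 0 (-3.36 to 0.34). The cause of these shifts was not tested, other than that the −log10 q limit removes the weak peaks among which missing peaks lay. For single segments, 109 of 152 values stayed within their interval. Signs changed in 8 single-segment values, 7 of them with a reported interval that crossed 0, 6 on proximal 17q, where the −log10 q limit gave 1.19 (D3 minus WT), 0.62 (E4 minus WT) and a log2 width ratio of 0.034 (E4 over WT). No paired analysis was possible because each population had 1 library and the groups share only replicate number 1. For the same reason no library could be left out. Depth is unknown, so a weak peak absent from a list was not detectable there rather than shown to be unbound.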
